A study of Mus musculus with 12 samples.

Results

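Smooth muscle contractile genes were examined in single-cell gene expression libraries of mouse aorta. The 10 genes were taken from a list of names, and all 10 were found among the 32285 genes of the count matrices. They are the actins Acta2 and Actg2, the actin-binding proteins Tagln, Cnn1, Tpm2, Smtn, Lmod1 and Synpo2, the myosin heavy chain Myh11 and the transcriptional coactivator Myocd. They were measured over all kept cells, in cells with at least 1 UMI (unique molecular identifier, 1 counted RNA molecule) of Myh11 or Cnn1, and in other classes of cells. The question was whether their levels were lower within cells in atherosclerosis (AS).

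The study compared aortas of 4 groups of male C57BL/6J ApoE-/- mice, 18 per group, followed for 24 weeks from an age of 8 weeks. The Healthy group had a normal diet and saline. The other groups had a high-fat diet, with saline alone in AS. Methazolamide (MTZ), a carbonic anhydrase inhibitor used for glaucoma, was given at 25 mg/kg every other day for the last 12 weeks in the MTZ-treated group and for all 24 weeks in the MTZ-preventive group. The sample labels write the drug as methoxazolamide. Each group was 1 gene expression library from 6 pooled aortas, so no difference below has a replicate error. The 95% intervals cover counting error only, and no test between groups was possible.

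In contractile smooth muscle, myosin filaments containing Myh11 pull on actin filaments made of Acta2 and Actg2. Calponin (Cnn1), tropomyosin (Tpm2), transgelin (Tagln), smoothelin (Smtn), leiomodin (Lmod1) and synaptopodin 2 (Synpo2) bind the actin filaments, and Myocd acts with serum response factor at CArG boxes to turn these genes on. Vascular smooth muscle cells are known for losing this programme when they change state in diseased arteries.

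In the mouse genome (RefSeq, GRCm38.p6) Acta2 lies at chr19:34240336-34255585, Actg2 at chr6:83512909-83536251, Tagln at chr9:45929628-45936058, Cnn1 at chr9:22099221-22109221 and Myh11 at chr16:14194527-14292188. A promoter window of 300 bases, 250 before a RefSeq transcript start and 50 after it, was at hand for 6 of the 10 genes. A CArG box was searched on both strands as CC, 6 bases of which at least 5 were A or T, and GG. Of the 6 windows 1 held it, that of Acta2 with 2 matches, and 9.98% of all 32851 windows held at least 1. With all 6 inner bases A or T, none of the 6 windows and 1.63% of all windows matched. The stretch of 80 bases that holds both matches, chr19:34255388-34255467 on the minus strand, is shown since Acta2 is the actin that defines contractile smooth muscle. The Acta2 window, chr19:34255324-34255623, belongs to a transcript start at 34255373, which lies 212 bases inside the outer end of the gene span given above. Capitals mark the matches.
Acta2 promoter: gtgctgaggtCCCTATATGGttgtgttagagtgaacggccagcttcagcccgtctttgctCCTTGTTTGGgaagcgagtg

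The libraries held 21857 barcodes (Healthy), 6908 (AS), 20938 (MTZ-treated) and 23963 (MTZ-preventive), of which 11121, 2160, 6796 and 14186 were kept as cells. The median kept cell had 1901, 1299, 1535 and 1643 UMIs. Between any 2 libraries, 22 to 237 barcodes of kept cells were shared. Levels are given as CPM, the UMIs of a gene per 1000000 UMIs of the same cells. The targeted gene Apoe was at 734 CPM in the library labelled Healthy and at 8.44 to 12.5 in the other 3, so this library went against its ApoE-/- label. Every direction against Healthy below is a direction against the library labelled Healthy.

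Over all kept cells, all 10 contractile genes had their lowest level in AS. With looser limits on cells, and doublets called again, 4 of them turned against Healthy. Acta2 was at 3287 CPM (Healthy), 1518 (AS), 4505 (MTZ-treated) and 3492 (MTZ-preventive). The ratio of AS to Healthy was 0.462 (95% interval 0.450 to 0.474). Tagln, an actin-binding protein, was at 3303, 2009, 6328 and 3588 in the same order, with a ratio of 0.608 (0.594 to 0.623). AS was lowest and MTZ-treated highest for both genes. Myh11 was at 599, 316, 706 and 575 CPM, a ratio of 0.528 (0.497 to 0.560).

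Cnn1 and Actg2 had the largest gap to AS. Cnn1 was at 252 CPM (Healthy), 46.5 (AS), 204 (MTZ-treated) and 241 (MTZ-preventive), a ratio of AS to Healthy of 0.185 (0.158 to 0.215). Actg2, the actin best known from visceral smooth muscle, was at 85.6, 15.0, 75.6 and 74.8, a ratio of 0.175 (0.132 to 0.228). The 3 libraries other than AS lay close together for both genes. Actg2 and Acta2 have near-identical coding sequences, so reads could be divided between them, and this was not checked.

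The other 5 genes had ratios of AS to Healthy of 0.462 (Smtn) to 0.651 (Synpo2). Myocd, the coactivator, was the least abundant by UMIs, at 13.0, 7.49, 10.1 and 12.5 CPM. Of the 8 members with at least 50 CPM in either library, 4 (Acta2, Actg2, Cnn1 and Smtn) were at least 2-fold lower in AS, against 12.1% of all 3225 genes tested. All 8 were at least 2-fold higher in MTZ-treated than in AS (5.14% of all genes), with ratios over the 10 members of 1.35 for Myocd to 5.05 for Actg2. In MTZ-preventive 3 of the 8 (Acta2, Actg2 and Cnn1) were at least 2-fold higher than in AS (3.94% of all genes). Past 2-fold in the opposite direction there were 0 members in both, against 6.54% and 3.33% of all genes. The 3 comparisons share the AS library. In such sums fewer smooth muscle cells and less RNA per cell cannot be told apart, and the size of the difference depended on which barcodes were kept. With looser limits on UMIs and mitochondrial share, and doublets called again, the 10 genes summed were at 0.915 of Healthy in AS. The limits used gave 0.528. With the looser limits Tagln, Lmod1, Synpo2 and Myh11 were higher in AS, by 0.0701, 0.0943, 0.33 and 0.0406 on the log2 scale. The new doublet call took 21726 barcodes to 17950 in Healthy and 6815 to 6443 in AS. The limits used had removed 1218 and 39 doublets. In the barcodes left out by the limits used, Tagln was at 2360 CPM in Healthy and 2187 in AS. The looser limits and the new doublet call were not tested apart.

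**Figure D1:**
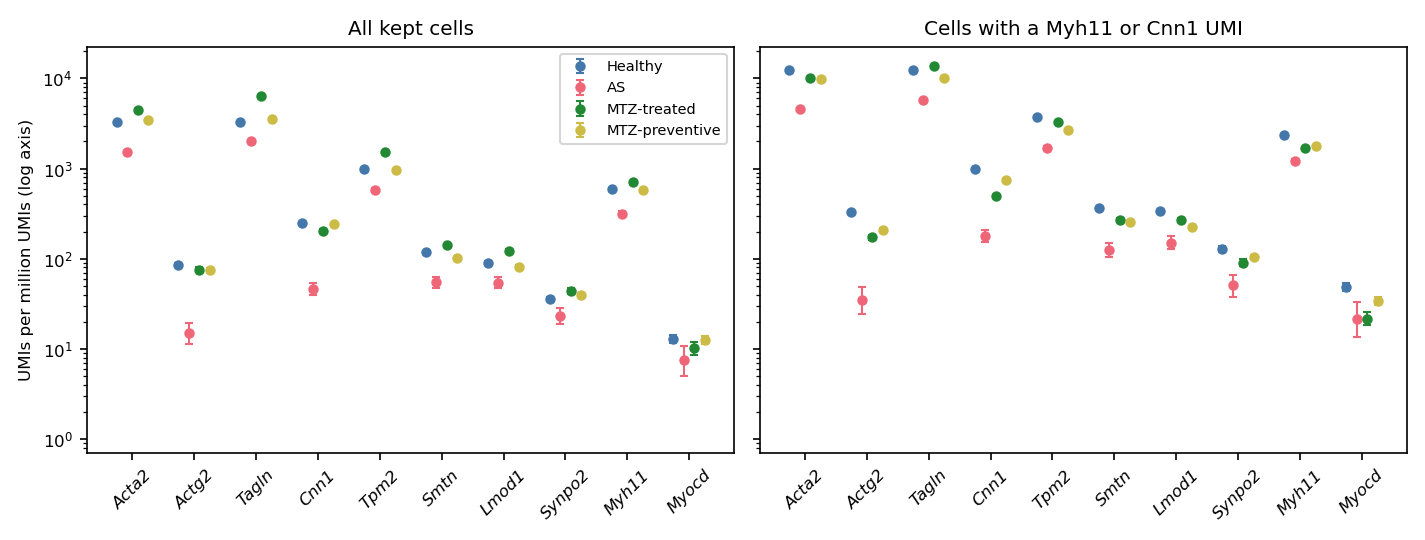
CPM (log axis) of the 10 contractile genes in each library, over all kept cells (left) and over cells with a Myh11 or Cnn1 UMI (right). Points are 1 library each and bars are exact Poisson 95% intervals for counting error. AS lies lowest for every gene in both panels except for Myocd on the right, where AS (21.6) and MTZ-treated (21.7) nearly coincide.

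Cells with a Myh11 or Cnn1 UMI numbered 2641 (Healthy, 23.7% of kept cells), 595 (AS, 27.5%), 2984 (MTZ-treated, 43.9%) and 4736 (MTZ-preventive, 33.4%). Their share was thus not lowest in AS. What differed was how many such UMIs a cell held. Cells with a single UMI of the 2 genes made up 38.2% (Healthy), 61.2% (AS), 40.1% (MTZ-treated) and 47.0% (MTZ-preventive). Cells with at least 3 such UMIs made up 43.0%, 21.7%, 42.2% and 35.2%, and the median total was 1576, 1286, 1538 and 1583 UMIs.

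Most of these cells were not smooth muscle-like by other genes. Cells were clustered without the 10 contractile genes, and clusters were named from other markers. Smooth muscle-like clusters held 22.2% (Healthy), 10.4% (AS), 30.03% (MTZ-treated) and 22.04% (MTZ-preventive) of the cells with a Myh11 or Cnn1 UMI. Adipocyte-like cells made up 0.303% (Healthy), 19.0% (AS), 1.61% (MTZ-treated) and 30.2% (MTZ-preventive). Macrophage-like cells made up 1.33%, 9.75%, 2.01% and 0.612%, and neutrophil-like cells 1.29%, 8.24%, 0.235% and 0.971%. AS had the smallest part of smooth muscle-like cells and the largest of macrophage-like and neutrophil-like cells. Unnamed clusters held 33.6%, 31.9%, 18.2% and 20.8%. Among the unnamed clusters were 3 with smooth muscle markers, described below, which held 619, 33, 296 and 337 kept cells in all.

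Summed over each whole marker list, the same cells carried more neutrophil, macrophage and adipocyte marker RNA in AS. The lists of the remaining types are not given for these cells. The 9 neutrophil markers summed to 113, 5182, 95.9 and 169 CPM in Healthy, AS, MTZ-treated and MTZ-preventive, with none at 0 in AS. The 12 macrophage markers summed to 86.2, 1562, 352 and 88.4, with Mrc1 at 0 in AS. The 9 adipocyte markers summed to 106, 10605, 549 and 5579. The part of these cells in the levels below was not tested apart from the choices of cells given there.

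**Figure D2:**
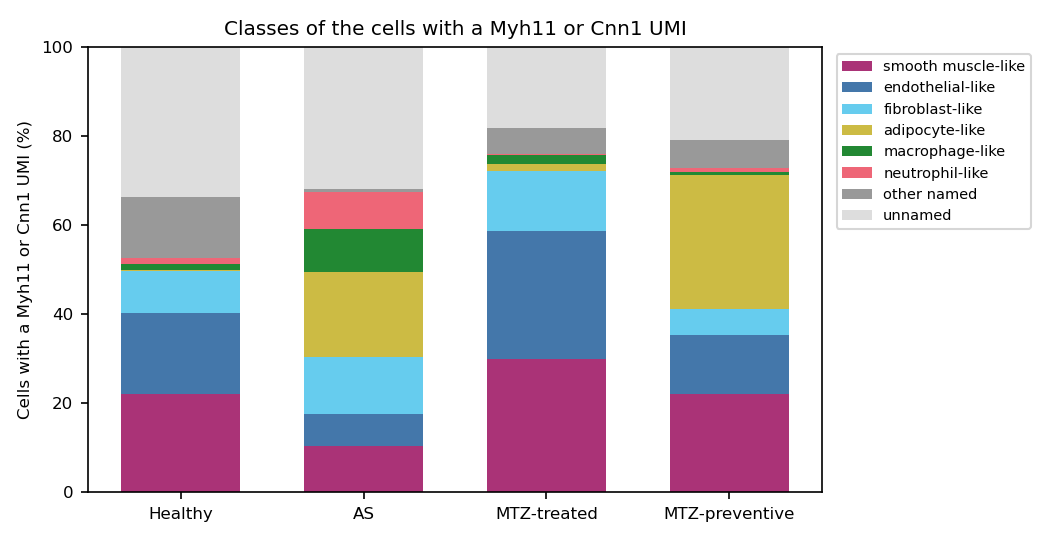
Share of the cells with a Myh11 or Cnn1 UMI (in %, bars add to 100) that fell in each class of clusters, 1 bar per library. Smooth muscle-like cells are 10.4% of these cells in AS and 22.04% to 30.03% in the other libraries; other named classes are B-like, T-like, Schwann-like, mesothelial-like, pericyte-like and lymphatic endothelial-like cells.

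Within cells with a Myh11 or Cnn1 UMI, the contractile genes were lower in AS by more than over all cells. Acta2 was at 12454 CPM (Healthy), 4541 (AS), 10014 (MTZ-treated) and 9913 (MTZ-preventive), a ratio of AS to Healthy of 0.365 (0.354 to 0.376). Tagln was at 12401, 5751, 13822 and 9991, a ratio of 0.464 (0.451 to 0.476). Both were lowest in AS, and Tagln was highest in MTZ-treated. Tpm2 was at 3692, 1694, 3319 and 2653, a ratio of 0.459 (0.436 to 0.482).

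The low-count members went the same way. Smtn, a marker of contractile cells, was at 363, 125, 268 and 254 CPM, a ratio of 0.344 (0.284 to 0.412). Lmod1, an actin filament nucleator, was at 336, 150, 266 and 224, a ratio of 0.447 (0.376 to 0.529). Actg2 was at 326, 35.0, 173 and 210, a ratio of 0.108 (0.0743 to 0.151). Actg2 was thus the member with the largest difference. Synpo2 had a ratio of 0.394 (0.289 to 0.526) and Myocd of 0.446 (0.272 to 0.693), on 49 and 21 UMIs in AS. The median ratio of the 8 members not used to choose the cells was 0.420, and the median log2 difference of all genes was -0.09.

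Of the 8 members not used to choose the cells, 7 had at least 50 CPM in either library, and those 7 were at least 2-fold lower in AS, against 9.14% of all genes. Myocd was under 50 CPM in both. Myh11 and Cnn1 chose the cells, so their levels of 2373 and 997 in Healthy and 1219 and 179 in AS are a description only. Against AS, 4 of the 7 were at least 2-fold higher in MTZ-treated (4.80% of all genes) and 4 of the 7 in MTZ-preventive (4.41%). In the opposite direction there were 0 of these members in the 3 comparisons, against 7.73%, 6.22% and 2.61% of all genes. Myocd did not differ between MTZ-treated and AS beyond counting error, with a ratio of 1.003 (0.630 to 1.67).

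The difference became smaller as more UMIs of Myh11 and Cnn1 were asked for. Asking for more UMIs takes cells by their own contractile RNA and by their depth. It was not repeated at equal depth, so the change is a description only. Other choices of cells, given with the processing below, made it larger in some cases and smaller in others. In the 1135, 129, 1258 and 1668 cells with at least 3 Myh11 and Cnn1 UMIs, the median ratio of AS to Healthy of the 8 members was 0.655. There Acta2 was at 18548, 11491, 16828 and 18806 CPM, a ratio of 0.620 (0.598 to 0.642). AS was still the lowest library. Of the 8 members not used to choose the cells 1, Actg2, was at least 2-fold lower, against 9.92% of all genes, and 0 were higher (7.32%). Against AS, 1 of 7 was at least 2-fold higher in MTZ-treated (5.58%; lower 0, 7.66%) and 1 of 8 in MTZ-preventive (6.10%; lower 0, 4.25%). In cells with UMIs of both genes (993, 75, 930 and 1400) the median ratio was 0.706.

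Smooth muscle-like clusters, named without any of the 10 genes, held 609 cells (Healthy), 64 (AS), 945 (MTZ-treated) and 1082 (MTZ-preventive). Of these cells 94.8% to 96.9% had a Myh11 or Cnn1 UMI, against 4.41% of the B-like and 5.29% of the T-like cells in Healthy. Their median depth was 4847, 2366, 2229 and 2615 UMIs, and that of the B-like and T-like cells 1887 and 2715. At 1000 UMIs per cell the share was 92.4% in smooth muscle-like, 2.79% in B-like and 2.72% in T-like cells of Healthy. There were 19 B-like and 12 T-like cells in AS. Since clusters were named by smooth muscle markers, cells that lacked these markers are not counted here. Smooth muscle-like cells held 73.4%, 47.6%, 74.1% and 73.8% of all UMIs of the 10 genes.

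In smooth muscle-like cells Tagln, Acta2 and Tpm2 differed less between AS and Healthy than in cells with a Myh11 or Cnn1 UMI. Tagln was at 22126 CPM (Healthy), 21099 (AS), 27429 (MTZ-treated) and 22922 (MTZ-preventive), a ratio of AS to Healthy of 0.954 (0.922 to 0.986). Acta2 was at 22214, 16931, 19806 and 23110, a ratio of 0.762 (0.734 to 0.791). Tpm2, a tropomyosin, was at 6469, 5433, 6338 and 5929, a ratio of 0.840 (0.786 to 0.896). By these summed counts Acta2 and Tpm2 were lowest in AS by less than 2-fold. By the median per cell, given below, AS was not the lowest library for either gene. Tagln was higher in AS than in Healthy by that median. Summed over the 8 members not used to choose cells above, AS was at 0.844 of Healthy (0.824 to 0.863).

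Cnn1 and Actg2 kept their difference in these cells. Cnn1 was at 1652 CPM (Healthy), 477 (AS), 881 (MTZ-treated) and 1598 (MTZ-preventive), a ratio of AS to Healthy of 0.289 (0.230 to 0.359). Actg2 was at 416, 69.0, 274 and 401, a ratio of 0.166 (0.0856 to 0.291) on 12 UMIs in AS. For both genes the order was AS, MTZ-treated, MTZ-preventive and Healthy from the lowest to the highest. These 2 of 10 members were at least 2-fold lower, beside 11.4% of all genes, and 0 were higher, beside 6.35%. A count of 2 in 10 was near that background.

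Myh11, the myosin heavy chain, lay between these groups of genes. It was at 3911, 2351, 2661 and 3459 CPM, a ratio of AS to Healthy of 0.601 (0.543 to 0.663). Smtn was at 671, 362, 478 and 563, a ratio of 0.540 (0.413 to 0.693). AS was the lowest library for both. Lmod1 had a ratio of 0.742 (0.580 to 0.937) and Synpo2 of 0.628 (0.3997 to 0.943). For Myocd, at 89.5, 63.2, 36.1 and 70.1 CPM with 11 UMIs in AS, a difference from Healthy was not detectable at this depth, with a ratio of 0.707 (0.349 to 1.28).

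**Figure D3:**
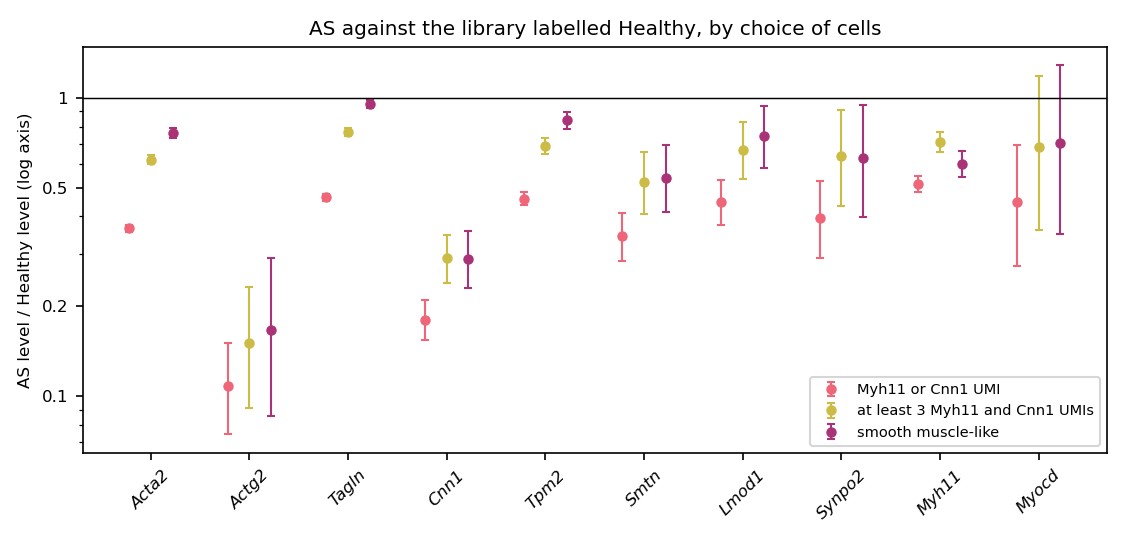
Level in AS divided by the level in the library labelled Healthy (log axis) for each gene, in cells with a Myh11 or Cnn1 UMI, in cells with at least 3 such UMIs, and in smooth muscle-like cells, with exact 95% intervals for counting error. The line marks equal levels. Acta2 moves from 0.365 to 0.762 and Tagln from 0.464 to 0.954, while Cnn1 (0.289) and Actg2 (0.166) stay lowest in smooth muscle-like cells.

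Against AS, both MTZ libraries had more Cnn1 and Actg2 over all smooth muscle-like cells. The clusters behind these cells had different mixes in each library, as given below, and the ratios here are not split by cluster. The ratio of MTZ-treated to AS was 1.85 (1.48 to 2.33) for Cnn1 and 3.98 (2.26 to 7.73) for Actg2. The ratio of MTZ-preventive to AS was 3.35 (2.70 to 4.21) and 5.82 (3.32 to 11.3). MTZ-preventive lay close to Healthy for both genes, and MTZ-treated lay between AS and Healthy. At least 2-fold higher than in AS were 1 of 10 members in MTZ-treated (5.61% of all genes) and 2 of 10 in MTZ-preventive (8.90%). At least 2-fold lower were 0 of 10 in both, against 6.48% and 4.77% of all genes.

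The other members moved less. In MTZ-treated the ratio to AS was 1.30 (1.26 to 1.34) for Tagln, 1.17 (1.13 to 1.21) for Acta2 and 1.13 (1.02 to 1.25) for Myh11. In MTZ-preventive it was 1.09 (1.05 to 1.12) for Tagln, 1.36 (1.32 to 1.42) for Acta2 and 1.47 (1.33 to 1.63) for Myh11. Tagln was thus highest in MTZ-treated, and Acta2 and Myh11 were higher in MTZ-preventive than in MTZ-treated. By the median per cell some directions turned. Tagln was then lower in MTZ-preventive (15637 CPM) than in AS (18378.5), and Acta2 lower in MTZ-treated (13725) than in AS (14300). The other directions against AS given here for Tagln, Acta2 and Myh11 held. In the summed counts Myocd was the one member below AS in MTZ-treated, at a ratio of 0.571 (0.305 to 1.18), which counting error allows to be 1.

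The smooth muscle-like cells came from 3 clusters with different mixes in each library. A cluster led by Sost and Optc held 331, 22, 491 and 513 cells in Healthy, AS, MTZ-treated and MTZ-preventive. A cluster led by Nrip2 and Pln held 203, 42, 371 and 339 cells. A cluster led by Rgs5 and Itga8 held 75, 0, 83 and 230. The Nrip2 and Pln cluster was thus the larger one in AS alone.

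Cnn1 and Actg2 were unevenly spread over these clusters. In Healthy, Cnn1 was at 2231 CPM in the Sost and Optc cluster and at 395 in the Nrip2 and Pln cluster, and Actg2 at 585 and 45.3. Acta2 was at 26069 and 14666 in the same clusters. How reads were divided between Actg2 and Acta2 was not tested. Within the Sost and Optc cluster the ratio of AS to Healthy was 0.3996 (0.299 to 0.524) for Cnn1 and 0.316 (0.157 to 0.568) for Actg2, nearer to 1 than over all smooth muscle-like cells. Acta2 was there at 0.720 (0.678 to 0.764) and Tagln at 0.908 (0.860 to 0.958).

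In the Nrip2 and Pln cluster the direction of the abundant genes turned. Tagln was at 15320 CPM (Healthy), 19956 (AS), 19366 (MTZ-treated) and 15651 (MTZ-preventive), a ratio of AS to Healthy of 1.30 (1.25 to 1.36). Acta2 was at 14666, 15974, 12666 and 17421, a ratio of 1.09 (1.04 to 1.14). Cnn1 was still lower in AS than in Healthy, at 395, 262, 270 and 312, a ratio of 0.664 (0.441 to 0.965). In MTZ-treated Cnn1 was thus close to AS in this cluster, at 270 against 262. Myh11 was at 3400, 1991, 1674 and 2493, a ratio of 0.586 (0.510 to 0.670). Actg2 had 1 UMI in AS in this cluster, a ratio of 0.193 (0.00477 to 1.14). Lower Cnn1 and Myh11 in AS were therefore found in both clusters, and lower Acta2 and Tagln in the Sost and Optc cluster but not in the other.

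A rule added after seeing the data left 3 clusters with smooth muscle markers unnamed, since none of those markers was among their 10 leading genes. They held 619 cells (Healthy), 33 (AS), 296 (MTZ-treated) and 337 (MTZ-preventive), which is 5.57%, 1.53%, 4.36% and 2.38% of kept cells. With them counted as smooth muscle-like, the ratio of AS to Healthy was 0.296 for Cnn1, 0.140 for Actg2, 0.758 for Acta2 and 0.962 for Tagln.

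Markers of other types were also present in smooth muscle-like cells, at levels that differed between types and libraries. The 9 neutrophil markers summed to 7.16, 339, 24.3 and 16.5 CPM in Healthy, AS, MTZ-treated and MTZ-preventive, with Csf3r, Cxcr2, Mmp9 and Camp at 0 in AS. The 12 fibroblast markers summed to 4384, 1029, 2303 and 3196, with Pdgfra at 0 in AS. The 12 T markers were all at 0 in AS and summed to 44.6 in Healthy. The part of such RNA in the levels of the contractile genes was not tested.

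Per cell the groups overlapped widely. The sum of the 10 genes in a smooth muscle-like cell had a median of 45645 CPM in Healthy (lowest 3831, highest 139231) and of 41861 in AS (4333 to 92659). It was 45758 in MTZ-treated (5342 to 143677) and 42544 in MTZ-preventive (618 to 150761). Cnn1 had a median of 917, 0, 522 and 791 CPM, and 26.4%, 51.6%, 38.3% and 33.5% of the cells had none. Acta2 had a median of 16429, 14300, 13725 and 15567 CPM, and Tpm2 of 4960, 4674, 5089 and 4605. Tagln had a median of 16825, 18378.5, 21022 and 15637. AS was thus lowest for none of Acta2, Tpm2 and Tagln by this median. The summed levels above weight each cell by its UMIs, and the median does not.

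At equal depth the share of cells with a UMI was lower in AS than in Healthy for Cnn1, but not for every member with lower CPM. With each smooth muscle-like cell thinned to 1000 UMIs, Cnn1 was seen in 55.2% of cells (Healthy, 51.1 to 59.2), 28.1% (AS, 17.6 to 40.8), 42.9% (MTZ-treated, 39.7 to 46.1) and 52.5% (MTZ-preventive, 49.5 to 55.5). Without thinning the shares were 73.6%, 48.4%, 61.7% and 66.5%. Acta2 was seen in 99.8%, 100%, 99.9% and 99.3% of thinned cells. These shares lie at the upper limit, so they cannot show a difference in the level of Acta2. Between Healthy and AS, Actg2 was seen in 16.9% and 6.25% of thinned cells, Smtn in 37.6% and 26.6%, and Myocd in 7.55% and 4.69%. Lmod1 was seen in 35.1% and 34.4% (AS, 22.9 to 47.3) and Synpo2 in 15.8% and 17.2% (AS, 8.90 to 28.7). The lower CPM of Lmod1 and Synpo2 in AS was thus not seen in these shares. Myh11 was seen in 88.5% (85.7 to 90.9), 79.7% (67.8 to 88.7), 83.6% (81.1 to 85.9) and 86.9% (84.7 to 88.8), and the interval of AS overlapped all of the others. Over all kept cells the order differed, with a thinned Acta2 UMI in 30.4%, 42.5%, 56.0% and 44.8% of cells (36.4%, 48.4%, 63.3% and 53.7% without thinning). A larger share of AS than of Healthy cells thus held an Acta2 UMI. Immune-like cells were 5450 of 11121 cells in Healthy and 324 of 2160 in AS, and 8.39% of B-like and 6.89% of T-like cells in Healthy held a thinned Acta2 UMI.

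Contractile RNA was also counted in classes that should make little of it. In macrophage-like cells Acta2 was at 1467 CPM (Healthy, 79 cells), 665 (AS, 172), 759 (MTZ-treated, 214) and 1103 (MTZ-preventive, 62). In endothelial-like cells it was at 1892, 884, 1541 and 1447, and in fibroblast-like cells at 563, 684, 631 and 452. In B-like cells it was at 96.4 in Healthy, 172 in MTZ-treated and 169 in MTZ-preventive. The level differed by over 10-fold between B-like and macrophage-like cells of Healthy, and AS was below Healthy in macrophage-like and endothelial-like but not in fibroblast-like cells. In adipocyte-like cells Acta2 was at 191, 834, 2136 and 1234 CPM, a ratio of AS to Healthy of 4.37 (2.98 to 6.67) on 73 cells in Healthy. Over all immune-like cells it was at 111, 804, 481 and 228, of which 3264 were B-like and 2061 T-like among 5450 in Healthy, and 19 and 12 among 324 in AS. The ratio of AS to Healthy for the 10 genes summed was 0.677 (0.607 to 0.755) in macrophage-like, 0.504 (0.449 to 0.567) in neutrophil-like, 0.607 (0.568 to 0.649) in endothelial-like, 1.35 (1.27 to 1.43) in fibroblast-like and 3.91 (3.17 to 4.87) in adipocyte-like cells.

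**Figure D4:**
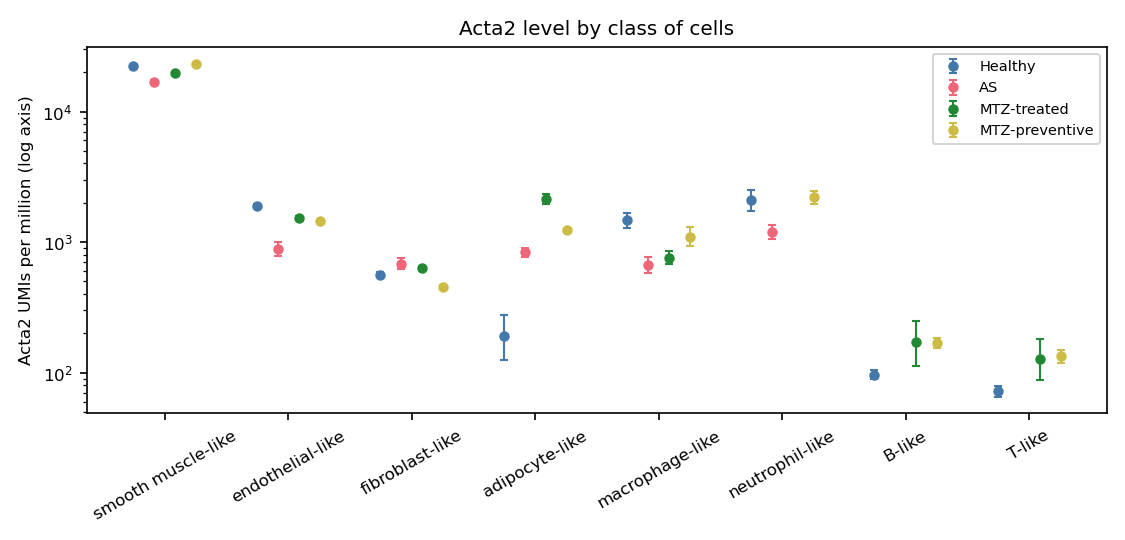
Acta2 CPM (log axis) by class of cells and library, with exact Poisson 95% intervals for counting error. Smooth muscle-like cells lie at 16931 to 23110 and every other class lies below; classes with under 20 cells in a library are not drawn.

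Cnn1 was also a smaller part of the contractile RNA in AS, in smooth muscle-like cells and in other classes. Cnn1 made up 2.83% of the UMIs of the 10 genes in smooth muscle-like cells of Healthy (2.75 to 2.91), 1.008% in AS (0.803 to 1.25), 1.51% in MTZ-treated (1.44 to 1.57) and 2.72% in MTZ-preventive (2.65 to 2.79). In immune-like cells (B-like, T-like, macrophage-like and neutrophil-like) it made up 3.02%, 0.503%, 1.69% and 2.88% in the same order. In fibroblast-like cells it made up 3.15%, 0.809%, 1.99% and 2.17%, and in endothelial-like cells 1.89%, 0.622%, 0.940% and 1.95%. AS had the lowest share in each of these 4 classes. The counting intervals of AS and MTZ-treated overlapped in endothelial-like cells (0.229 to 1.35 and 0.805 to 1.09).

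Tagln went the other way. It made up 37.9%, 44.6%, 46.9% and 39.0% of the UMIs of the 10 genes in smooth muscle-like cells of Healthy, AS, MTZ-treated and MTZ-preventive. In immune-like cells the shares were 37.2%, 44.4%, 43.5% and 37.5%. AS and MTZ-treated thus lay above Healthy and MTZ-preventive in both. The level of Cnn1 itself, as a ratio of AS to Healthy, was 0.289 in smooth muscle-like, 0.1995 (0.0724 to 0.442) in endothelial-like, 0.347 (0.170 to 0.635) in fibroblast-like and 0.150 (0.0265 to 0.581) in macrophage-like cells. The last 3 rest on 6, 11 and 3 UMIs in AS.

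**Figure D5:**
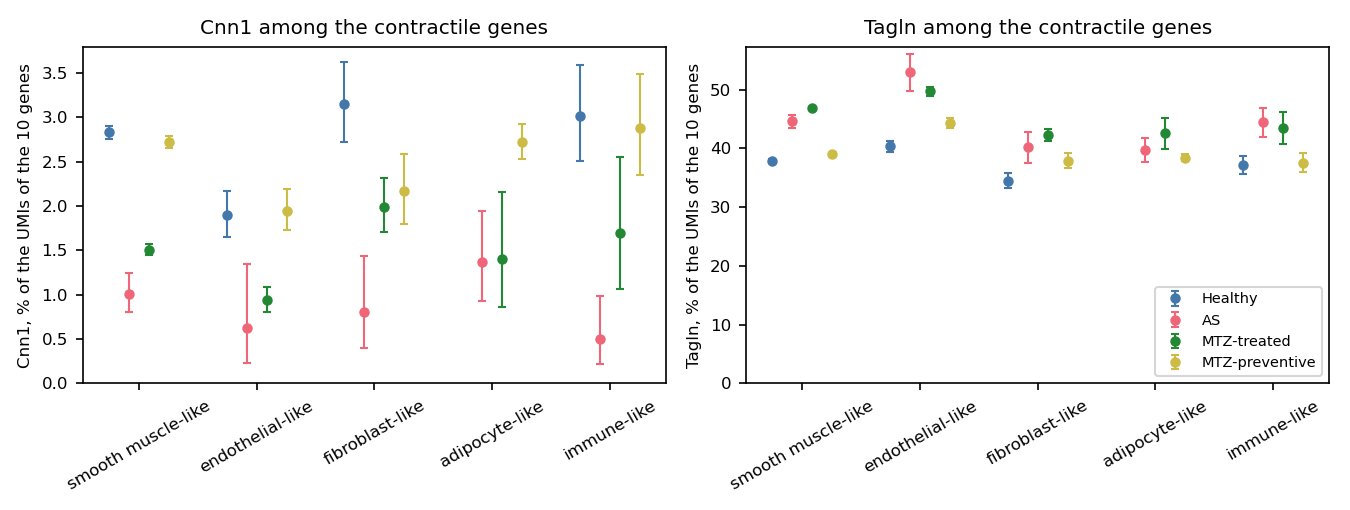
Share (in %) of the UMIs of the 10 contractile genes that were Cnn1 (left) or Tagln (right), by class of cells and library, with exact Clopper-Pearson 95% intervals. Cnn1 is lowest in AS in every class drawn, though AS (1.37%) and MTZ-treated (1.40%) nearly coincide in adipocyte-like cells. Tagln is higher in AS and MTZ-treated than in Healthy and MTZ-preventive in the smooth muscle-like cells. Adipocyte-like cells of Healthy, with 92 such UMIs in all, are not drawn.

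Other genes of the contractile apparatus were counted from a list of 25 that holds none of the 10. In smooth muscle-like cells 23 were tested, of which 5 were at least 2-fold lower in AS than in Healthy (11.4% of all genes) and 0 higher (6.35%), with a median log2 difference of -0.23 against 0.05 for all genes and -0.58 for the 10 members. The lowest ratios were 0.257 (0.172 to 0.371) for the integrin Itga8, 0.421 (0.344 to 0.512) for the alpha-actinin Actn1, 0.440 (0.239 to 0.745) for the potassium channel subunit Kcnmb1 and 0.453 (0.122 to 1.18) for the calcium channel Cacna1c. Cacna1c, with 4 UMIs in AS, reached the limit of 50 CPM in Healthy only. Among the highest were 1.73 (1.61 to 1.84) for Mustn1, 1.21 (1.12 to 1.31) for the tropomyosin Tpm1 and 1.18 (0.527 to 2.30) for Srf, the factor that binds CArG boxes. Of the 23, Itga8, Kcnmb1, Mustn1, Tpm1, Ppp1r14a, Pln, Mylk, Des, Csrp1, Myl9 and Pcp4l1 were also among the markers that named the clusters. The count and the median in smooth muscle-like cells thus rest in part on genes that chose these cells, and are a description only. Among cells with a Myh11 or Cnn1 UMI, 8 of 21 were at least 2-fold lower (9.14% of all genes) and 1 higher (7.73%). The counts for this list over all kept cells are not given here. Whether these genes were lower there, as the 10 members were, cannot be read from the counts above.

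Past 2-fold, genes listed for modulated smooth muscle cells leaned higher in AS over all kept cells and lower in smooth muscle-like cells. Not every gene did. The genes that reached 50 CPM were not the same in both sets of cells, and all kept cells include every class. Over all kept cells, 7 of 16 tested were at least 2-fold higher in AS (386 of all 3225 genes) and 2 lower (12.1%), led by Spp1 at 8.01 CPM in Healthy and 3020 in AS and Lgals3 at 40.6 and 684. Of 12 tested in smooth muscle-like cells, 6 were at least 2-fold lower in AS (11.4% of all genes) and 0 higher (6.35%), with a median log2 difference of -0.98. The lowest were the matrix genes Dcn at 0.0704 on 1 UMI (0.00177 to 0.396), Col1a2 at 0.107 (0.0620 to 0.171), Col3a1 at 0.110 (0.0719 to 0.162) and Fn1 at 0.116 (0.0767 to 0.167), which was at 2.39 (2.31 to 2.47) over all kept cells. Dcn reached the limit of 50 CPM in Healthy only. Over all kept cells Dcn was higher in AS, at 1.41, while Col1a2 (0.441) and Col3a1 (0.536) were lower there too. The highest in smooth muscle-like cells were Lgals3 at 1.91 (1.24 to 2.83), Ly6a at 1.41 (0.627 to 2.77), Klf4 at 0.894 (0.702 to 1.12) and Vim at 0.806 (0.750 to 0.865). Lgals3 was thus higher in AS in both sets of cells. The fibroblast markers given above were also lower in AS in smooth muscle-like cells. That list shares Dcn, Col1a2, Col3a1 and other genes with this one, so this is not a separate observation. Of 12 dissociation stress genes 2 were at least 2-fold lower, near the 11.4% of all genes, Hspa1b at 0.236 (0.121 to 0.414) and Hspa1a at 0.263 (0.173 to 0.384), followed by Fosb at 0.649 and Egr1 at 0.703. The highest were Ier3 at 1.74, Atf3 at 1.62, Ier2 at 1.31 and Dusp1 at 1.25.

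The genes most like the members across cells included other parts of the same apparatus. Over 39 groups of at least 20 cells, each a library and a class, log2(CPM + 1) was correlated with the mean of the members for 4256 genes. Highest were Myl9, a myosin light chain, at r = 0.976, Myom1 at 0.933, Mrvi1 at 0.931, Tpm1 at 0.926 and Mylk, the myosin light chain kinase, at 0.918. Flna, Ppp1r14a, Pde3a, Des and Npnt followed at 0.905 to 0.914. The groups share libraries and depth. Myl9, Tpm1, Mylk, Ppp1r14a, Des and Npnt were also among the markers that named the smooth muscle-like clusters. These values are therefore a description. Among the members, r with that mean ranged from 0.776 (Smtn) to 0.973 (Tpm2).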

How the data were processed

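Aortas were profiled with 5′ single-cell libraries (10x Genomics). The deposited files hold raw UMI counts per gene and barcode that the authors made with Cell Ranger (cellranger 5.0.0 in the file headers; STAR and mm10 in the submitters' notes). Receptor contig files were not used. Barcodes with over 200 genes, over 1000 UMIs, log10 genes per log10 UMIs over 0.7, under 10% mitochondrial and under 5% red blood cell UMIs were kept, as in the study. Doublets were called by simulation (0.8% per 1000 cells) and removed. Without the 10 genes, 2000 variable genes, 30 components, 20 mutual nearest neighbours and Leiden clustering (leidenalg 0.10.2, resolution 1) gave 60 clusters, 28 of them unnamed. A name needed 3 markers among 50 leading genes and, by a rule added after seeing the data, 1 among the leading 10.

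Counts were summed per library and class and divided by their total (CPM, UMIs per 1000000). Intervals (95%) are exact Poisson for levels, Clopper-Pearson for shares and conditional binomial for ratios. A gene was tested against a 2-fold limit on log2(CPM + 1) where 1 of the libraries compared reached 50 CPM. Alternatives included TMM factors (edgeR 4.0.16). On Poisson counts simulated under the model of the intervals, 95.5% of the ratio intervals for 2773 genes held the true ratio. This checks the calculation only, since differences between cells were not simulated. Genes named are the 10 members, the 4 lowest and 4 highest tested genes of each list, and the 10 genes most alike. A gene that this rule names is not reported here. Members and lists were chosen with earlier results of these data known. Each group was 1 library, so there was no test between groups.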

Additional observations from a re-analysis of the deposited data

How the results depend on the processing

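Values in this paragraph are log2 ratios for AS to Healthy, MTZ-treated to AS and MTZ-preventive to AS, in that order. Over all kept cells the 10 genes summed gave -0.92, 1.56 and 0.98. With looser limits on cells this was -0.13, 1.48 and 0.93, with doublets kept -0.81, 1.46 and 0.79, with TMM factors -0.85, 1.48 and 0.91, as a mean over cells -0.37, 1.47 and 0.69, and without mitochondrial, ribosomal and hemoglobin genes -1.08, 1.59 and 1.08. In cells with a Myh11 or Cnn1 UMI the 8 other genes gave -1.27, 1.18 and 0.92. Looser limits gave -0.84, 1.26 and 1.16, doublets kept -1.21, 1.09 and 0.75, TMM factors -1.12, 1.13 and 0.82, a mean over cells -0.96, 1.20 and 0.73, and totals without mitochondrial, ribosomal and hemoglobin genes -1.28, 1.19 and 0.96. Cells with 3 UMIs gave -0.55, 0.62 and 0.54, with both genes -0.45, 0.56 and 0.42, chosen after thinning -1.33, 1.27 and 1.07, with 3 other markers -1.14, 1.07 and 0.93, without 5 genes of other types -1.04, 0.997 and 0.86, and with free RNA subtracted -1.42, 1.30 and 1.06. Smooth muscle-like clusters gave -0.25, 0.30 and 0.27, their chosen cells alone -0.24, 0.32 and 0.27, resolution 0.5 -0.29, 0.33 and 0.35, and resolution 2 -0.25, 0.30 and 0.27. Choices made after seeing the data were the clusters with 20 cells in every library (-0.28, 0.35 and 0.35), the left-out clusters added (-0.24, 0.40 and 0.37), the Sost and Optc cluster alone (-0.33, 0.44 and 0.42) and the Nrip2 and Pln cluster alone, which reversed all 3 (0.18, -0.13 and -0.0907). The share of cells with an Acta2 UMI, 0.48 for AS to Healthy, was 0.27 with looser limits. Single genes that reversed were Tagln (0.0701), Lmod1 (0.0943), Synpo2 (0.33) and Myh11 (0.0406) for AS to Healthy over all cells with looser limits, and Synpo2 as a mean over cells (0.12). In chosen cells they were Synpo2 for MTZ-treated with both genes (-0.0881) and Myocd for MTZ-preventive with both genes (-0.13) and at resolution 0.5 (-0.0555). The cause was not tested. Doublets were called again under the looser limits, so those values hold both changes. Of the other values of single genes, 262 moved beyond counting error and 258 did not. No paired analysis was possible because each group was 1 library, so no replicate could be left out either. AS had the fewest cells and UMIs, which limits Actg2, Synpo2 and Myocd most.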

Other observations

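Barcodes left out by the limits on UMIs and mitochondrial share (9387, 4616, 13641 and 7494 in Healthy, AS, MTZ-treated and MTZ-preventive) carried the contractile genes too. Acta2 was there at 2240, 1604, 2793 and 2127 CPM. Cnn1 was at 174, 68.3, 164 and 155, so AS was lowest for both genes in these barcodes as well. Myh11 was at 548, 475, 840 and 530.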
